A study of Mus musculus with 9 samples.

Results

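RNA-seq of J774A.1 cells, a mouse macrophage line, was used to compare cells that carried the guide RNA named sgRNA 11 against Slc12a9 with cells that carried the guide called Safe sgRNA. The members are the 6 libraries of these groups, 3 for each guide, out of 9 in the series, chosen by the guide named in their titles. The other 3 libraries carried sgRNA 15, a different guide against the same gene, and serve here to show where sgRNA 11 stood apart from it. The safe cells have the genotype label WT, and the cells of both Slc12a9 guides have the label SLC12A9 knockdown, while the design text calls them KO cells, so groups are named by their guide. All groups were grown in 10% fetal bovine serum with L-glutamine and then spent 6 h in a medium lacking both serum and glutamine, after which RNA was taken. The stated aim is to compare expression in the targeted cells with that in controls, and the design text relates the medium to ammonia, which cells make from glutamine. How the guides were delivered, and whether a group was 1 clone or a mixed population, is not given in the sources used here. The labels do not say that replicates were separate cultures, so the p-values rest on a spread between samples that may be technical.

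Slc12a9 encodes a member of the SLC12 family, whose best known members carry sodium, potassium and chloride ions together across membranes, and the title of the series places it in the control of lysosomal osmolarity. Lysosomes digest what macrophages take up by endocytosis and phagocytosis, and release amino acids, cholesterol and fatty acids for reuse. Short supply of amino acids raises translation of the transcription factor ATF4, which acts on genes for amino acid synthesis and uptake. A drop in sterol in the endoplasmic reticulum releases SREBP factors, which act on genes for making and importing cholesterol and fatty acids.

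Slc12a9 (ENSMUSG00000037344, mm10 chromosome 5, 137314558 to 137333597, minus strand) was the targeted gene. Levels are given as CPM, a library's counts scaled by its total, after TMM adjusted that total by a factor for each library. Its level was 44.9, 53.5 and 47.04 CPM in the safe libraries and 62.3, 66.3 and 66.9 CPM with sgRNA 11. It was 48.2, 49.98 and 51.9 CPM with sgRNA 15. All 3 sgRNA 11 libraries were above all 6 others. Slc12a9 rose with sgRNA 11 from 48.5 ± 4.49 to 65.2 ± 2.51 CPM (mean ± SD, n = 3, as for all means below), with log2 fold change 0.43 (SE 0.05, edgeR quasi-likelihood adjusted p = 4.48e-12). After a correction for GC content and length the value was 0.27. Against sgRNA 15 it was higher as well (log2 0.38, edgeR adjusted p = 9.98e-10). A guide that edits a gene need not lower its mRNA, so these counts do not measure whether the protein was lost, and every direction below is that of libraries labelled with the guide. Within 1 Mb of the gene, 17 of the 31 tested genes on the higher-coordinate side were higher with sgRNA 11 than with safe sgRNA. Another 5 were lower (median log2 0.29), where 33.1% of all tested genes were higher and 33.1% lower. On the lower-coordinate side 3 of 14 were higher and 8 lower (median log2 -0.12). With sgRNA 15 against safe sgRNA these medians were 0.05 and -0.43. Against sgRNA 15, 13 of the 31 were higher and 1 lower, and 4 of the 14 were higher and 2 lower. Over all tested genes, 15.3% were higher and 18.7% lower in that contrast. The part of the neighbourhood in the value of Slc12a9 was not tested.

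Counts in genes ranged from 16405296 to 25613961 over the 9 libraries, or 17617390 to 25613961 over the 6 with safe sgRNA and sgRNA 11, and 79.3 to 80.7% of the reads in each of the 9 tables were assigned to genes. Of 55487 genes, 13262 had 10 or more counts in at least 3 of the 6 libraries and were tested. Replicates varied with a biological coefficient of variation of 2.80%. By principal components, the first axis (60.6% of variance) set the safe libraries at -41.6 to -39.4 and those with sgRNA 11 at 23.1 to 24.5. The second (13.5%) set sgRNA 11 at 13.5 to 18.96 apart from sgRNA 15 at -18.8 to -16.1. By a chi-square on raw counts, which grows with depth, safe replicate 1, the deepest library, differed most from its group. Its values per degree of freedom were 6.83 and 5.16 against safe replicates 2 and 3, where replicate pairs of any group ranged from 1.76 to 6.83. Correlations of log2 CPM did not set it apart (0.99501 and 0.99494, and 0.99455 between safe replicates 2 and 3). Counts of called genes are also given without safe replicate 1. By the same chi-square, replicate 3 differed most in the sgRNA 11 group (4.05 and 3.48, against 2.05 between replicates 1 and 2). Mitochondrial transcripts took 1.63 to 1.76% of counts in safe libraries and 1.43 to 1.53% with sgRNA 11.

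The macrophage identity of the cells was visible in every library. All 10 macrophage markers were tested, with 8 higher and 2 lower with sgRNA 11 than with safe sgRNA (Cd14 and Cd68). Of all tested genes, 33.1% were higher and 33.1% lower. The summed level of the 10 markers was 6075 to 6224 CPM in safe libraries, 9527 to 9807 with sgRNA 11 and 7841 to 7914 with sgRNA 15. Lyz2, which encodes lysozyme, was the largest part of these sums with sgRNA 11 (4433 to 4595 CPM). Summed markers of other cell types were low in safe and sgRNA 11 libraries alike: at most 0.0541 CPM for epithelial cells, 1.11 for erythroid cells, 2.50 for fibroblasts, 4.07 for neutrophils and 5.56 for dendritic cells. Epcam, Krt8, Krt18, Hba-a1, Hbb-bt, Col1a2, Dcn, Lum, S100a9, Ngp and Ccr7 were at 0 counts in all 6. T cell markers summed to 4.54 to 5.31 CPM with safe sgRNA and 9.05 to 9.14 with sgRNA 11, nearly all of it Lck, with Cd3e, Cd3g, Cd8a and Trac at 0. B cell markers summed to 17.9 to 19.8 and 9.32 to 12.9 CPM, nearly all of it Ighm, with Ms4a1 at 0. Endothelial markers summed to 5.07 to 5.21 and 10.6 to 13.2 CPM, with 3 of 5 tested and 1 of them called higher (Vwf). Osteoclast markers summed to 47.8 to 49.5 and 67.9 to 73.7 CPM with Acp5 at 0, and most of that sum was Nfatc1. The part of these sums in the results below was not tested.

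Nearly all genes of the amino acid stress response were higher with sgRNA 11 than with safe sgRNA, and all tested genes of cholesterol synthesis were lower (values below). The promoters of these groups are shown first, because the letters that ATF4 and SREBP factors recognise can be read in some of them. Windows of 250 bases before the transcript start were taken from RefSeq on GRCm38.p6, the build called mm10, for 9257 of the tested genes. The C/EBP-ATF response element was searched as TGATGNAA on both strands. It occurred before 10 of the 35 genes of the amino acid stress list that had a window (28.6%), against 2.53% of all tested genes with a window. These 10 were Aars, Asns, Atf3, Chac1, Gars, Herpud1, Nupr1, Pck2, Pycr1 and Slc7a11. The sterol regulatory element was searched as TCACNCCAC on both strands, and no motif searched holds another. It occurred before 1 of 18 cholesterol genes with a window (5.56%, against 1.22% of all tested genes), which was Hmgcs1. The C/EBP-ATF letters also stood before 1 of these 18 genes (5.56%) and before 3 of 35 lysosomal hydrolase genes (8.57%) and 1 of 12 V-ATPase genes (8.33%), and the sterol letters before 0 of 10 fatty acid synthesis genes. Stretches around the match in 6 of these genes and in Hmgcs1 follow, each on the strand of its gene, 5′ to 3′, with the match in capitals (a match on the opposite strand reads as the reverse complement, and Slc7a11 holds a second match, in lower case, on its own strand). Asns (chr6:7693210-7693277, minus), Chac1 (chr2:119351004-119351101, plus), Pck2 (chr14:55540118-55540215, plus), Nupr1 (chr7:126625528-126625625, minus) and Slc7a11 (chr3:50443614-50443705, minus) belong to genes that rose with sgRNA 11. Atf3 (chr1:191183391-191183488, minus) was the member of the list that fell, and Hmgcs1 (chr13:119690169-119690267, plus) fell with the rest of its list.
Asns: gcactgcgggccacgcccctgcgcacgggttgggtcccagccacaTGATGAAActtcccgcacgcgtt
Chac1: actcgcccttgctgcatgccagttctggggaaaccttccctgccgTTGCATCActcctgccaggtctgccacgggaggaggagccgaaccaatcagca
Pck2: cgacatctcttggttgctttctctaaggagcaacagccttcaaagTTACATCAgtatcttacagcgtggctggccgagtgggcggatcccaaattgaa
Nupr1: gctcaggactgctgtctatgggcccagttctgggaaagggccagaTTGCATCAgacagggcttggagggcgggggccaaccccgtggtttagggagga
Slc7a11: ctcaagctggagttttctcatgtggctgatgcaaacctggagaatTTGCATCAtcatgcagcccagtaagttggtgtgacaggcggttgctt
Atf3: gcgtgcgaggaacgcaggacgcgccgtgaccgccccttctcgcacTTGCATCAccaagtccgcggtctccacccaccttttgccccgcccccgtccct
Hmgcs1: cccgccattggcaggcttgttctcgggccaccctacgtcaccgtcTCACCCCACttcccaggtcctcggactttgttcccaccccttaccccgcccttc
A match describes letters in this window only. The lists were drawn up as genes of an ATF4-type and an SREBP2 response, so a raised share of these letters can come from that choice alone. Which factor acted in these cells was not tested. The element before Atf3 has the same 8 letters as those before Chac1 and Nupr1, while the measured directions of these genes differed.

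Most measured genes differed between sgRNA 11 and safe sgRNA. In the edgeR quasi-likelihood test, 8780 of 13262 genes were called at an adjusted p under 0.05 (66.2%), of which 4384 were higher (33.1%) and 4396 lower (33.1%). Without safe replicate 1, 4120 were higher and 4238 lower. Most differences were small. The median size was 0.46 on the log2 scale among higher and 0.40 among lower genes, and 1028 of the higher and 1249 of the lower genes changed by less than 1.2-fold. Changes of 1 or more on the log2 scale were found in 689 higher genes (5.2%) and 348 lower genes (2.62%), or 729 and 353 without safe replicate 1. When only genes with a mean of at least 5 CPM were kept these counts were 303 and 148, and 264 and 131 genes passed a test against a minimum change of 1. All 3 sgRNA 11 libraries lay above all 3 safe libraries in CPM for 34.2% of tested genes and below them for 34.1%, so single genes without overlap were common. The tail was longer upwards, with 108 higher and 35 lower genes beyond 4-fold and 23 and 5 beyond 8-fold. Summed over called genes, 106370 CPM were gained and 133986 CPM lost per library on average. The plot of all tested genes shows the called genes spread over the whole range of abundance.

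**Figure D1:**
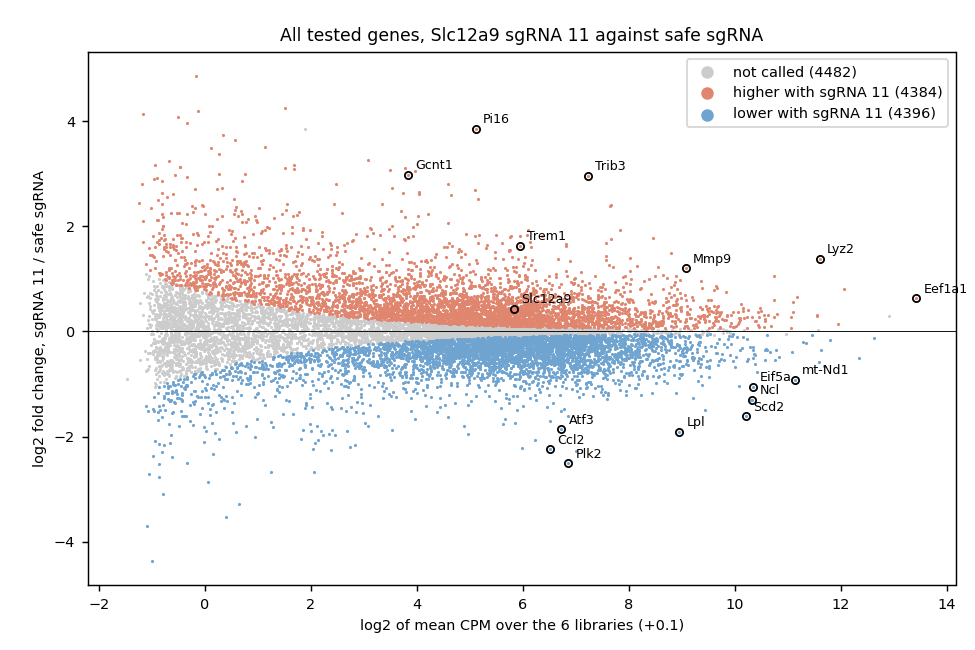
Log2 fold change of each tested gene with sgRNA 11 against safe sgRNA (y axis) over the log2 of its mean CPM in the 6 libraries (x axis), with 4384 genes called higher in red, 4396 lower in blue and the others in grey. The labelled genes reach from Pi16 at 3.86 to Plk2 at -2.51, and the targeted gene Slc12a9 lies at 0.43.

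The 12 largest rises among genes with a mean of at least 5 CPM were led by Pi16, a secreted member of the peptidase inhibitor family. Pi16 was 3.95, 5.01 and 4.49 CPM in safe libraries, 60.9, 64.4 and 68.4 with sgRNA 11 and 36.3, 35.1 and 39.1 with sgRNA 15. It rose 14.5-fold (log2 3.86, SE 0.08, edgeR adjusted p = 3.21e-53), and the 3 groups did not overlap. Trib3, a stress-induced pseudokinase, rose from 33.8, 32.9 and 35.5 to 264, 262 and 271 CPM and was 247, 254 and 268 CPM with sgRNA 15, so that the libraries of both guides overlapped far above the safe ones. Gcnt1, which builds core 2 branches on O-glycans, was 3.24, 2.78 and 3.51 CPM in safe libraries and 27.3, 23.8 and 24.2 CPM with sgRNA 11. With sgRNA 15 it was 15.5, 13.1 and 14.9 CPM, between the other groups. The transport genes Slc1a4, a carrier of small neutral amino acids, and Aqp9, a pore for water and glycerol, rose from 9.24 to 59.3 CPM and from 4.47 to 28.4 CPM. Their levels with sgRNA 15 were 57.7 and 28.5 CPM. Soat2, which esterifies cholesterol, rose from 2.85 to 24.5 CPM, and Ptger2, a receptor for prostaglandin E2, from 3.66 to 22.9 CPM. Etv1, an ETS transcription factor, rose from 5.97 to 42.2 CPM, Ypel3 from 3.35 to 27.9 CPM, Klhl33 from 2.32 to 19.9 CPM, and Ctse, an aspartic protease of endosomes, from 1.42 to 9.54 CPM. Nptxr completed the 12 with a log2 change of 3.26, and is uncertain because 10% or more of its exon length overlaps another gene. Genes with that much overlap are called uncertain throughout, since whether counting used strand is not given.

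Among genes with a mean of at least 5 CPM, Plk2, a polo-like kinase induced by stress, had the largest fall. It was 199.9, 199.7 and 193 CPM in safe libraries, 32.2, 35.3 and 36.8 CPM with sgRNA 11 and 100.4, 98.8 and 98.1 CPM with sgRNA 15. Levels with sgRNA 11 were 5.68-fold lower than with safe sgRNA (log2 -2.51, SE 0.04, edgeR adjusted p = 1.64e-60), and those with sgRNA 15 lay in between without overlap. The chemokines Ccl2, Ccl4 and Ccl3, which attract monocytes and other leukocytes, were also among the 12. Ccl2 fell from 160.3, 145 and 149 to 32.5, 29.6 and 34.2 CPM, Ccl4 from 106, 109 and 100.4 to 24.5, 20.3 and 22.3 CPM and Ccl3 from 124, 122 and 117 to 29.3, 27.5 and 29.4 CPM. With sgRNA 15 their means were 58.7 ± 0.834, 55.8 ± 1.89 and 65.6 ± 2.39 CPM, above every sgRNA 11 library and below every safe library. Tnip3, which restrains NF-kB signalling, fell from 213 to 43.7 CPM, and Lpl, the lipoprotein lipase, fell from 782 to 209 CPM. Slc5a3, the sodium-dependent carrier of the osmolyte myo-inositol, fell from 8.15, 8.596 and 7.73 to 2.23, 2.23 and 2.17 CPM, with sgRNA 15 in between (3.09, 3.15 and 2.80 CPM) and no overlap. Hcar2, the receptor for niacin and hydroxybutyrate, fell from 9.94 to 2.68 CPM, Dusp2, a phosphatase of MAP kinases, from 10.7 to 2.36 CPM, and Gadd45b, a stress-response regulator, from 11.4 to 2.61 CPM. Ptger4, another prostaglandin E2 receptor, and the growth factor gene Tgfb3 had log2 changes of -1.94 and -1.98 and are uncertain.

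**Figure D2:**
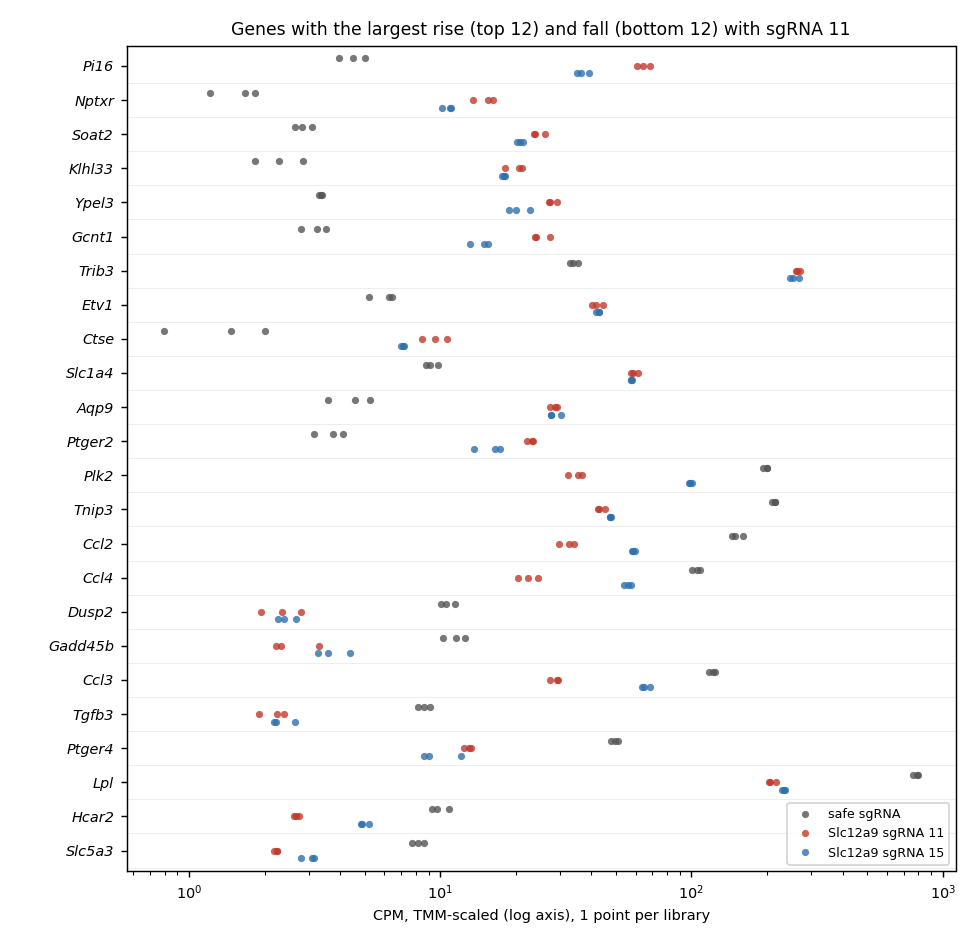
CPM of each library on a log axis for the 12 genes with the largest rise and the 12 with the largest fall with sgRNA 11 among genes with a mean of at least 5 CPM, with safe sgRNA in grey, sgRNA 11 in red and sgRNA 15 in blue. The 3 sgRNA 11 points lie apart from the 3 safe points in all 24 genes, while the sgRNA 15 points lie beside the red ones in some, such as Trib3, and between red and grey in others, such as Plk2.

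Against sgRNA 15, sgRNA 11 libraries were higher in 2030 genes (15.3%) and lower in 2480 (18.7%), 4510 in all (34.0%), by the edgeR quasi-likelihood test. Differences of 1 or more on the log2 scale were found in 84 genes in each direction (0.633%). Levels with sgRNA 11 were above both other groups for 1330 genes (10.0%) and below both for 1574 (11.9%), each past the test against both groups. Without safe replicate 1 these counts were 1341 and 1502, and without sgRNA 11 replicate 3 they were 1221 and 1279. After the correction for GC content and length they were 1204 and 1246. Only 41 higher genes (0.309%) and 31 lower genes (0.234%) differed from both by at least 1 on the log2 scale. Both contrasts hold the same sgRNA 11 libraries, so these counts choose genes that stand apart and are no independent evidence.

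Among the 12 genes with a mean of at least 5 CPM that stood furthest above both groups, Trem1, a receptor that amplifies inflammatory signals in myeloid cells, led. Trem1 (chromosome 17, 48232768 to 48246924, plus strand) was 27.9, 29.7 and 32.6 CPM with safe sgRNA, 93.6, 90.7 and 93.4 with sgRNA 11 and 30.4, 31.9 and 29.7 with sgRNA 15. The mean with sgRNA 11 was 3.10-fold that of safe sgRNA (log2 1.63, SE 0.05, edgeR adjusted p = 2.01e-42), while the 3 safe and 3 sgRNA 15 libraries overlapped. Against sgRNA 15 the log2 difference was 1.59 (edgeR adjusted p = 8.04e-41). Mmp9 (chromosome 2, 164940780 to 164955850, plus strand), a secreted gelatinase, was 312, 331 and 339.9 CPM with safe sgRNA, 743, 743 and 768 with sgRNA 11 and 275, 285 and 285 with sgRNA 15. It rose with sgRNA 11 (log2 1.198, SE 0.03, edgeR adjusted p = 1.01e-51), and the sgRNA 15 libraries were all below the safe ones. Genes of the extracellular matrix were in this set. Fn1, which encodes fibronectin, was 26.6, 27.8 and 28.01 CPM with safe sgRNA, 93.7, 98.997 and 96.4 with sgRNA 11 and 44.02, 47.2 and 43.99 with sgRNA 15. Tgfbi, a matrix protein induced by TGF-beta, was 226, 235 and 239 CPM with safe sgRNA, 652, 656 and 666 with sgRNA 11 and 333, 329.9 and 330.4 with sgRNA 15. In both genes sgRNA 15 lay between the others, closer to safe sgRNA in CPM, and no groups overlapped.

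Receptors made up much of the rest of these 12. Epha2, a receptor tyrosine kinase, rose from 23.04 ± 0.822 to 74.2 ± 2.58 CPM and was 29.6 ± 1.28 with sgRNA 15. Il17ra, the receptor subunit for interleukin 17, rose from 5.81 ± 0.265 to 26.5 ± 1.54 CPM and was 12.8 ± 0.537 with sgRNA 15. Tlr5, the receptor for bacterial flagellin, rose from 7.75 ± 0.495 to 14.5 ± 1.25 CPM and was 7.16 ± 0.182 with sgRNA 15. Notch1, the receptor of the Notch pathway, was 7.91, 9.76 and 11.2 CPM with safe sgRNA and 20.5, 18.98 and 20.04 with sgRNA 11, with no overlap. Its levels with sgRNA 15 were 9.99, 11.1 and 11.3 CPM and overlapped those of safe sgRNA. The others were Bmf, a BH3-only regulator of apoptosis (log2 2.18 against safe and 1.30 against sgRNA 15), Neurl3, an E3 ubiquitin ligase (1.56 and 1.28), H2-DMb2, a chain of the factor that loads MHC class II (1.65 and 1.21), and Bank1, a signalling adaptor best known in B cells (1.75 and 0.89).

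Under the same filter, the 12 genes furthest below both groups held another matrix protease, chemokines and stress-induced regulators. Mmp12 (chromosome 9, 7344381 to 7369499, plus strand), the macrophage elastase, was 47.6, 48.4 and 39.1 CPM with safe sgRNA, 17.9, 16.7 and 16.4 with sgRNA 11 and 62.8, 63.3 and 70.3 with sgRNA 15. It fell with sgRNA 11 (log2 -1.41, SE 0.07, edgeR adjusted p = 1.65e-21), and the 3 groups did not overlap, with sgRNA 15 highest. Atf3 (chromosome 1, 191170296 to 191218039, minus strand), a stress-induced transcription factor, was 164, 164 and 170.1 CPM with safe sgRNA, 48.02, 41.4 and 46.7 with sgRNA 11 and 117, 119 and 123 with sgRNA 15. Its log2 change was -1.86 (SE 0.04, edgeR adjusted p = 2.03e-52) against safe and -1.39 against sgRNA 15, and sgRNA 15 lay between the other groups. Plk2, Ccl3 and Ccl4, described above, were in this set as well, with log2 differences of -1.51, -1.18 and -1.31 from sgRNA 15. Fabp5, a fatty acid binding protein, was 77.1, 76.6 and 76.9 CPM with safe sgRNA, 24.9, 24.96 and 23.2 with sgRNA 11 and 58.5, 53.5 and 54.5 with sgRNA 15, each group clear of the next. Zfp469, a zinc finger gene, had the largest difference from sgRNA 15 of these 12 (log2 -2.28), with 10.5 ± 1.12 CPM in safe libraries, 3.70 ± 0.903 with sgRNA 11 and 17.8 ± 1.22 with sgRNA 15. For Gas2l3, which links actin and microtubules, the means were 59.6 ± 1.30, 29.3 ± 0.378 and 66.2 ± 2.99 CPM. The remaining genes were Tmem158 (log2 -1.52 against safe and -1.31 against sgRNA 15), the RNA-binding protein gene Igf2bp2 (-1.27 and -1.08), the MAP kinase phosphatase gene Dusp8 (-1.05 and -1.01), and Tmod1, which caps actin filaments and is uncertain here (-1.07 and -0.97).

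**Figure D3:**
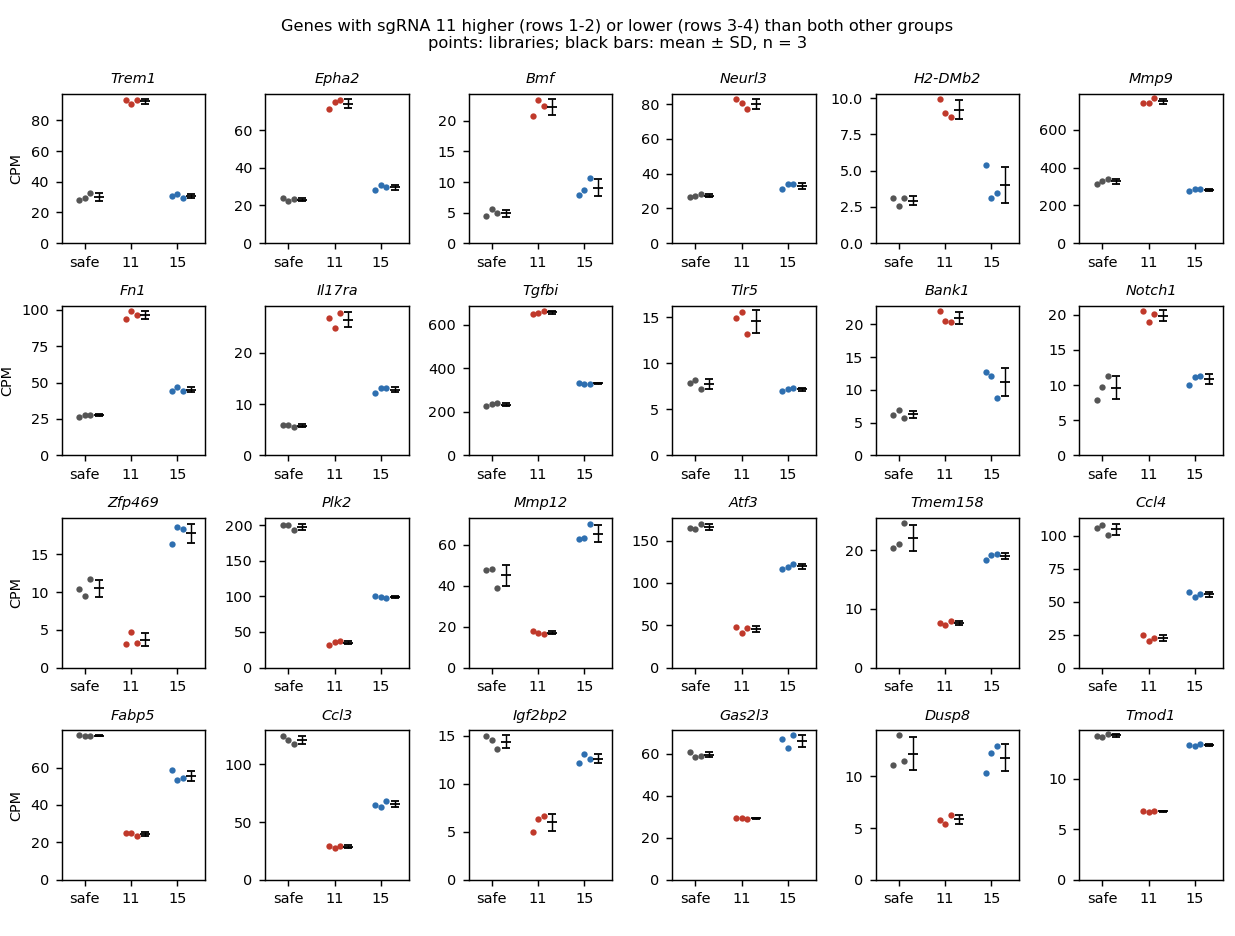
CPM of each library (points) with mean ± SD of 3 libraries (black bars) for the 12 genes furthest above and the 12 furthest below both other groups among genes with a mean of at least 5 CPM, with safe sgRNA in grey, sgRNA 11 in red and sgRNA 15 in blue. Trem1 reached 92.6 CPM with sgRNA 11 against 30.1 and 30.7 in the other groups, and Mmp12 stood at 16.996 CPM against 45.02 and 65.5.

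The gene lists below are read against all tested genes, of which 33.1% were higher and 33.1% lower with sgRNA 11 against safe (median log2 0.01) and 15.3% higher and 18.7% lower against sgRNA 15 (median -0.01). With sgRNA 15 against safe, 8390 genes were called (63.3%), 32.1% of all tested genes higher and 31.2% lower, and 4.52% and 2.0% by at least 1 on the log2 scale. Comparisons with safe sgRNA share the safe libraries, so values of the guides are set side by side without a measure of likeness.

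Genes of the amino acid stress response were mostly higher with sgRNA 11. Of 40 tested members 37 rose and 1 fell, with a median log2 change of 1.01 (1.02 with sgRNA 15). Pck2, the mitochondrial enzyme that makes phosphoenolpyruvate, was 63.1, 65.3 and 65.4 CPM with safe sgRNA and 341, 339 and 347 CPM with sgRNA 11, which was above sgRNA 15 (308, 308 and 313 CPM). Asns, which makes asparagine from aspartate with glutamine as nitrogen donor, rose from 95.5, 101 and 90.2 to 368, 363 and 358 CPM (log2 1.93, SE 0.03, edgeR adjusted p = 4.81e-61), and was 372, 374 and 376 CPM with sgRNA 15, a little above all sgRNA 11 libraries. Atf5, a transcription factor of this response, rose from 64.5 ± 0.651 to 335 ± 7.70 CPM. In none of these 3 genes or Trib3 did safe and sgRNA 11 libraries overlap. Against sgRNA 15, 5 members were higher and 14 lower with sgRNA 11, and the largest difference was that of Atf3, the only member that fell. After the GC and length correction 36 members rose and 3 fell.

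Cytosolic aminoacyl-tRNA synthetases, which charge tRNAs with amino acids, were split: 14 of 20 rose and 6 fell. Against sgRNA 15, 2 of them were higher and 11 lower with sgRNA 11. Nars, Sars and Cars rose from 309 to 643, from 350.4 to 609 and from 102 to 186 CPM, and Aars, an uncertain value, changed by log2 0.85. Kars, Dars and Farsa fell, with log2 changes of -0.62, -0.42 and -0.45. Genes of glutamine, glutamate and nucleotide synthesis, a list that also holds polyamine genes, were mostly lower (21 of 30 fell and 5 rose). Odc1 and Srm, enzymes of polyamine synthesis, fell from 177 to 81.1 and from 166 to 77.2 CPM. The members that rose included Gpt2, a mitochondrial alanine transaminase (23.6, 25.4 and 23.95 to 83.2, 83.7 and 85.3 CPM, with sgRNA 15 overlapping sgRNA 11 at 83.8, 85.05 and 84.9), and the proline synthesis genes Pycr1 (log2 2.59) and Aldh18a1 (1.02), and these 3 also belong to the amino acid stress list.

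Genes of cholesterol synthesis and uptake were lower with sgRNA 11 than with safe sgRNA and also lower than with sgRNA 15. All 24 tested members of 26 listed fell against safe sgRNA (median log2 -1.15), and 14 of them by at least 1 on the log2 scale, where 2.62% of all tested genes fell by as much. Against sgRNA 15, 22 of 24 were lower (median -0.53), and with sgRNA 15 the median against safe was -0.58. Insig1, the sterol-sensing retention factor of SREBP, was 148, 159 and 161 CPM with safe sgRNA, 57.9, 53.04 and 52.6 with sgRNA 11 and 102, 108 and 104.6 with sgRNA 15. Its log2 change was -1.51 (SE 0.04, edgeR adjusted p = 9.19e-47) against safe and -0.94 against sgRNA 15 (edgeR adjusted p = 2.40e-32), and the 3 groups did not overlap. Cyp51, an enzyme of cholesterol synthesis, fell from 161 ± 7.995 to 57.8 ± 2.73 CPM, with 94.2 ± 2.14 CPM under sgRNA 15. In both of these genes the sgRNA 15 libraries lay between the other groups. The counts of 24 and 22 were the same after the correction for GC content and length.

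Fatty acid synthesis followed the same order of groups. All 13 tested members fell with sgRNA 11 (median log2 -0.81, against -0.44 with sgRNA 15), and 12 were lower than with sgRNA 15. Scd2, a desaturase that makes monounsaturated fatty acids (chromosome 19, 44293674 to 44306864, plus strand), was 1804, 1801 and 1789 CPM with safe sgRNA, 588, 577 and 591 with sgRNA 11 and 1007, 1023 and 1014 with sgRNA 15, without overlap. Fasn, the fatty acid synthase, fell from 898 ± 30.8 to 443 ± 10.4 CPM and was 537 ± 7.44 with sgRNA 15. Fads2, a further desaturase, and Acly, which supplies cytosolic acetyl-CoA, fell by 1.24 and 0.81 on the log2 scale. Srebf1, the gene of the SREBP1 factor, fell from 280.3 to 213 CPM and was 264 CPM with sgRNA 15.

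Genes of cholesterol efflux under the receptor LXR were mostly higher than with safe sgRNA: 9 of 13 rose and 3 fell. Against sgRNA 15, 1 was higher and 7 were lower with sgRNA 11. Arl4c, a small GTPase, rose from 175 ± 6.75 to 349 ± 5.16 CPM, Smpdl3a, a secreted phosphodiesterase, from 10.3 ± 0.731 to 25.9 ± 1.58 CPM, and Npc2, which carries cholesterol out of lysosomes, from 422 ± 4.37 to 524 ± 6.73 CPM. Srebf1 fell, as given above, Lpcat3 had log2 -0.43 and is uncertain, and Abcg1, an exporter of cholesterol, had log2 -0.08, a call that was lost under several alternatives (-0.05 with scaling by library size). Of 18 genes of lipid uptake, storage and oxidation, 5 rose and 9 fell (3 rose after the GC and length correction). Of these 18, 4 fell by at least 1 on the log2 scale and 0 rose by as much. Among all tested genes 2.62% fell and 5.2% rose by that size. Hadhb, an enzyme of fatty acid oxidation, fell from 57.8 to 44.97 CPM, while Cpt1a, which admits fatty acids to mitochondria, rose from 22.7, 20.1 and 21.6 to 40.7, 34.5 and 34.6 CPM without overlap and was 26.7, 27.8 and 26.2 CPM with sgRNA 15.

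Lysosomal hydrolases were mostly higher with sgRNA 11, but many stood below their level with sgRNA 15. Of 44 tested, 38 rose and 5 fell against safe sgRNA (median log2 0.38), while 22 were lower and 8 higher than with sgRNA 15. Man2b1, a mannosidase, was 550.4, 588 and 576 CPM with safe sgRNA, 1031, 1031 and 1053 with sgRNA 11 and 805, 809.6 and 796 with sgRNA 15, so that sgRNA 11 was highest and no groups overlapped. Sgsh, Hexa and Ctsl, the other leading members, had log2 changes of 1.38, 0.66 and 0.75 and are uncertain. Ctsz, a cathepsin, went the other way, with 1404, 1422 and 1457 CPM in safe libraries, 1146, 1152 and 1181 with sgRNA 11 and 1522, 1539 and 1578 with sgRNA 15, again without overlap. Hyal2, a hyaluronidase, fell from 23.97 to 13.7 CPM. The letters TCACGTGA, a palindrome bound by factors of the TFEB type, stood in the 250 bases before 3 of the 35 hydrolase genes with a window (8.57%, against 1.86% of all tested genes), the same count as for the C/EBP-ATF letters. They also stood before 1 of 12 V-ATPase genes (8.33%) and 1 of 35 genes of the amino acid stress list (2.86%). Lysosomal membrane proteins had 20 of 33 higher and 7 lower than with safe sgRNA, and 5 higher and 17 lower than with sgRNA 15. Laptm5, Slc36a1, a carrier of amino acids and protons, and Scarb2, the receptor that brings glucocerebrosidase to lysosomes, rose with log2 changes of 0.52, 0.58 and 0.53. Clcn6, a chloride-proton exchanger of late endosomes, fell from 25.7, 22.9 and 24.7 to 13.8, 15.6 and 16.8 CPM, and Slc15a4, a carrier of peptides and histidine, from 46.9 to 34.7 CPM.

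Subunits of the V-ATPase, the proton pump that acidifies lysosomes, were mostly lower with sgRNA 11 than with sgRNA 15, while no common direction was seen against safe sgRNA. Against safe sgRNA 6 of 17 subunits rose and 6 fell with sgRNA 11. Against sgRNA 15, 15 of 17 were lower (median log2 -0.31), and with sgRNA 15 13 rose and 3 fell against safe (median 0.29). Atp6v1a, the catalytic subunit, was 239, 230.0 and 229 CPM with safe sgRNA, 284, 278 and 281 with sgRNA 11 and 474, 476 and 476 with sgRNA 15. It thus rose with sgRNA 11 (log2 0.27, SE 0.03, edgeR adjusted p = 1.86e-15) and lay below sgRNA 15 (log2 -0.76, edgeR adjusted p = 3.74e-39). Atp6v1h, a regulatory subunit, was 131, 135 and 123 CPM with safe sgRNA, 85.4, 82.4 and 81.8 with sgRNA 11 and 109, 116 and 112 with sgRNA 15, with sgRNA 11 lowest and no overlap. Atp6v1b2, the other core subunit, fell from 487 ± 4.93 to 381 ± 5.70 CPM, and Atp6v1e1, a stalk subunit, from 111 ± 5.48 to 92.5 ± 1.54 CPM. Atp6ap1, an accessory subunit, rose from 271 ± 5.97 to 347 ± 4.56 CPM. After the correction for GC content and length, 4 subunits rose and 8 fell against safe, and 16 were lower than with sgRNA 15.

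**Figure D4:**
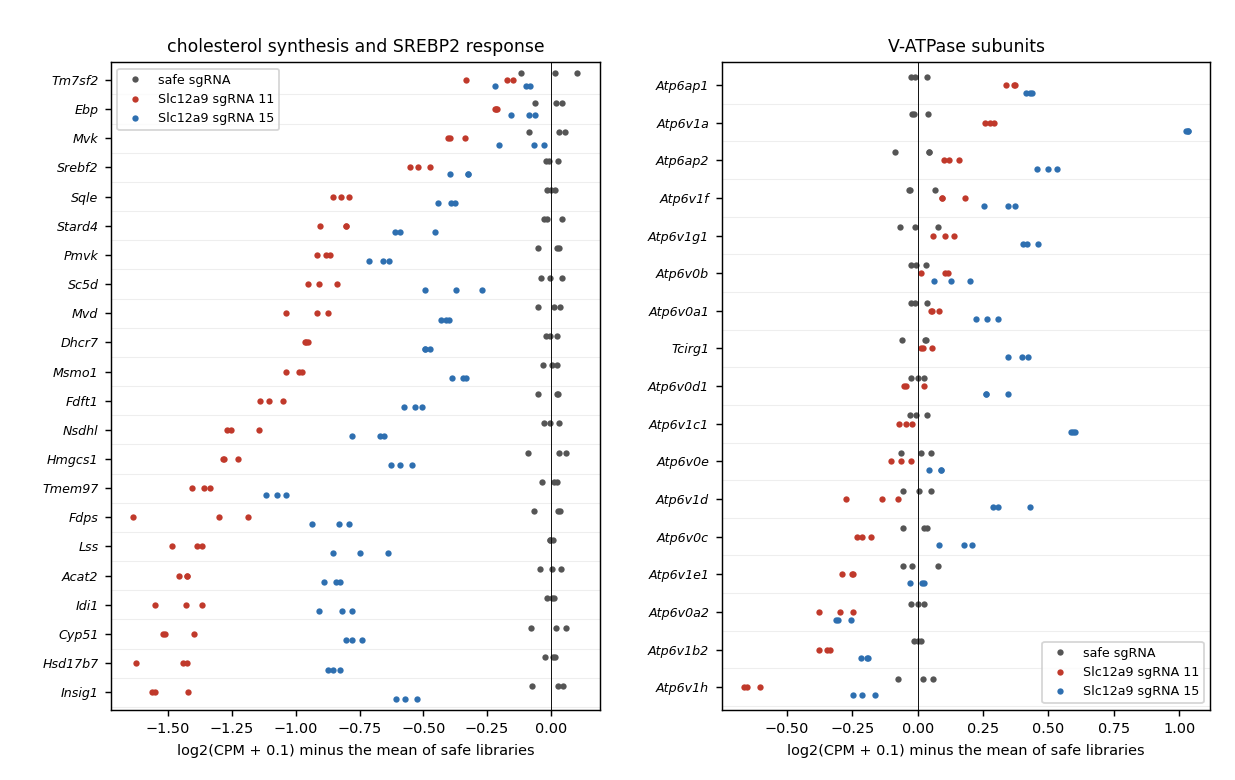
Each library's log2(CPM + 0.1) minus the mean of the 3 safe libraries for most tested genes of cholesterol synthesis (left) and the V-ATPase (right), with safe sgRNA in grey, sgRNA 11 in red and sgRNA 15 in blue. The red points lie left of the blue ones in most of the cholesterol genes shown, down to Insig1 (-1.51), and also in most V-ATPase genes, of which Atp6v1a has the widest gap (-0.76).

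Of the 10 tested SLC12 cotransporters and their kinases, 3 rose and 2 fell, and Slc12a9 itself was among those that rose. Slc12a5, a potassium-chloride cotransporter known from neurons, was 34.3, 32.8 and 34.3 CPM with safe sgRNA, 81.9, 77.8 and 78.3 with sgRNA 11 and 48.4, 49.8 and 45.4 with sgRNA 15. It rose with sgRNA 11 (log2 1.23, SE 0.05, edgeR adjusted p = 8.28e-36), and the 3 groups did not overlap. Slc12a2, the sodium-potassium-chloride cotransporter NKCC1, fell from 46.2, 45.9 and 46.8 to 31.9, 31.8 and 30.98 CPM without overlap, and Oxsr1, a kinase that activates it, from 97.3 to 63.99 CPM. With the GC and length correction 5 members fell in place of 2, and 4 with the replicate number as a block.

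Autophagy genes were mostly higher (27 of 36 rose and 4 fell, median log2 0.27). Ulk1, the kinase that starts autophagy, rose from 24.6, 24.5 and 24.5 to 47.1, 49.2 and 51.3 CPM and was 40.9, 36.99 and 36.3 CPM with sgRNA 15, between the other groups without overlap. Calcoco1, a cargo receptor, rose from 24.6 ± 1.03 to 64.5 ± 2.76 CPM, and Retreg1, a receptor for autophagy of the endoplasmic reticulum, from 214 ± 4.71 to 323 ± 9.03 CPM. The cargo receptor gene Sqstm1 had log2 0.99 and is uncertain. Atg2b, a lipid transfer protein of the autophagosome, fell, with log2 -0.20. Nutrient-sensing genes around mTORC1 were mixed (7 of 30 rose and 9 fell, or 11 rose with scaling by library size). Sesn2 and Sesn3, sestrins that restrain mTORC1, rose from 32.996 to 107 and from 4.92 to 11.8 CPM, and Rraga, a GTPase that recruits mTORC1 to lysosomes, fell from 88.4 to 49.3 CPM. The uncertain Lamtor1 had log2 0.60.

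Chemokines and cytokines were mostly lower: 12 of 19 fell and 3 rose (median log2 -0.85, or -0.55 among members with a mean of at least 5 CPM). Besides Ccl2, Ccl3 and Ccl4, the cytokine gene Tnf fell from 57.7, 60.8 and 60.1 to 31.3, 32.3 and 32.9 CPM and was 27.7, 28.8 and 29.5 CPM with sgRNA 15, which was lowest. No groups overlapped for Tnf. The members that rose were Ccl6 (log2 0.54), Il18 (0.65) and Tgfb1 (0.19), the last not called after the GC and length correction (0.04). NF-kB subunits and feedback regulators had 2 of 21 higher and 11 lower (median log2 -0.20, or -0.35 with that correction). Ikbke, a kinase of the pathway, fell from 114 to 75.1 CPM, Nfkb2 had log2 -0.53 and is uncertain, and Tnfaip2, a TNF-induced gene, rose from 164 ± 2.40 to 282 ± 6.89 CPM. Birc2, an inhibitor of apoptosis, rose with log2 0.22, and was not called without safe replicate 3 or without sgRNA 11 replicate 1.

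Interferon-stimulated genes were mostly higher with sgRNA 11 than with sgRNA 15. Of 34 tested, 20 were higher than with sgRNA 15 and 1 lower (median log2 0.33). Against safe sgRNA 16 rose and 8 fell with sgRNA 11 (median 0.11, or 0.24 among members with a mean of at least 5 CPM). Without safe replicate 1, 5 fell in place of 8. Against the same safe libraries 5 rose and 17 fell with sgRNA 15 (median -0.19). Gbp2, a guanylate-binding GTPase, rose from 2.08, 1.47 and 2.16 to 5.78, 7.26 and 8.41 CPM and was 5.36, 4.62 and 4.07 CPM with sgRNA 15, with sgRNA 11 highest and no overlap. Ddx58, the viral RNA sensor RIG-I, rose from 29.7, 28.01 and 27.7 to 40.5, 38.2 and 39.04 CPM, and Oas1a, a sensor of double-stranded RNA, from 60.6 ± 2.99 to 79.7 ± 1.30 CPM. Rsad2, the antiviral enzyme viperin, moved against them, from 6.47, 6.32 and 7.03 to 1.66, 2.18 and 1.90 CPM, without overlap, and was 3.14, 2.98 and 2.31 CPM with sgRNA 15. Cmpk2 and Ifi44 fell with log2 changes of -0.49 and -0.28 (-0.15 for Ifi44 after the GC and length correction). Ifi44 was nevertheless higher with sgRNA 11 than with sgRNA 15 (log2 0.35).

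Antigen presentation genes were mostly higher with sgRNA 11, and 10 of 18 were called higher against both other groups. Of these 18, 13 rose and 1 fell against safe sgRNA (median log2 0.42), and 12 were higher and 1 lower than with sgRNA 15 (median 0.23). Cd86, a costimulatory ligand for T cells, was 19.2, 21.7 and 18.2 CPM with safe sgRNA, 60.1, 59.1 and 58.3 with sgRNA 11 and 45.7, 48.2 and 46.4 with sgRNA 15, so that sgRNA 11 was highest without overlap. Tap1, a peptide transporter subunit, was 51.8, 52.6 and 52.5 CPM with safe sgRNA, 84.3, 90.1 and 87.7 with sgRNA 11 and 64.6, 66.6 and 64.5 with sgRNA 15, again without overlap. Tapbp and Tap2 had log2 changes of 0.41 and 0.61 and are uncertain, with 0.24 for Tapbp after the GC and length correction. Cd40, a costimulatory receptor, fell from 20.9 ± 1.59 to 15.9 ± 1.16 CPM. Of 24 phagocytic, Fc and scavenger receptors 12 rose and 6 fell, and 11 were higher and 3 lower than with sgRNA 15. The IgG receptors Fcgr2b and Fcgr3 were the leading pair. Fcgr2b, which inhibits signalling, was 146, 146 and 140.1 CPM with safe sgRNA, 377, 373 and 382 with sgRNA 11 and 557, 556 and 573 with sgRNA 15, so that sgRNA 11 lay in between. Fcgr3, which activates, was 157, 165 and 163 CPM with safe sgRNA, 356, 355 and 366 with sgRNA 11 and 292, 297 and 298 with sgRNA 15, so that sgRNA 11 lay highest. Trem2, a lipid-binding receptor, rose from 355 to 575 CPM, while Cd14 and Tlr2, receptors of bacterial ligands, fell from 893 to 568 and from 159.6 to 113 CPM. Scarb1, a receptor for HDL, fell from 195 to 128 CPM.

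Matrix metalloproteinases and surface peptidases showed no common direction (5 of 14 rose and 7 fell). Beside Mmp9 and Mmp12, Plau, the urokinase that activates plasminogen, fell from 209.5, 209 and 203 to 143, 141 and 147 CPM and was 206, 214 and 214 CPM with sgRNA 15, which overlapped safe sgRNA. Adam10, a surface sheddase, rose from 229 ± 1.73 to 288 ± 6.01 CPM, and Adam15 had log2 0.53 and is uncertain.

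Most genes of cytosolic ribosomal proteins rose, and most of those of ribosome assembly fell. Of 55 ribosomal protein genes 50 rose and 2 fell against safe sgRNA (median log2 0.28), and 46 were higher than with sgRNA 15 (median 0.14). Rps18 was 672, 694 and 690.1 CPM with safe sgRNA, 939, 939.8 and 983 with sgRNA 11 and 862, 841 and 862 with sgRNA 15, with sgRNA 11 highest and no overlap. Rps4x rose with log2 0.38. Rps2 fell, with log2 -0.08, a call lost with scaling by library size (-0.04). Ribosomal protein genes have many near-identical pseudogenes, and reads that align to more than 1 place were set aside in the counting, so their levels are uncertain as well. Of 48 genes of ribosome biogenesis, 45 fell and 1 rose (median log2 -0.68), and 25 were lower than with sgRNA 15 and 3 higher. Ncl, which encodes nucleolin, was 1871, 1847 and 1766 CPM with safe sgRNA, 731, 756 and 743 with sgRNA 11 and 899.7, 881 and 886 with sgRNA 15, with sgRNA 11 lowest and no overlap. Nolc1, Nop2 and Nop58, nucleolar proteins that help to process and modify ribosomal RNA, fell from 312 to 143, from 271 to 120.0 and from 247 to 111 CPM. The member that rose was Polr1c, a subunit shared by RNA polymerases I and III (log2 0.24, 0.14 with the GC and length correction), and 3 rose with scaling by library size.

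Nearly all proteasome subunits, which form the main protein-degrading complex of the cytosol, were lower: 31 of 32 fell (median log2 -0.43). Psmd1 fell from 294, 288 and 296 to 154, 152 and 154 CPM and was 179, 175 and 173 CPM with sgRNA 15, without overlap. Psmd3, Psmd12 and Psmd7 fell with log2 changes of -0.77, -0.85 and -0.73. Heat shock proteins and chaperonins had 21 of 26 lower (median log2 -0.63). Hsp90aa1, the stress-inducible form of the chaperone HSP90, was 1056, 1021 and 991 CPM with safe sgRNA, 370.0, 362 and 351 with sgRNA 11 and 475, 474 and 485 with sgRNA 15, with sgRNA 11 lowest and no overlap. Hspd1, the mitochondrial chaperonin, fell from 839 ± 15.8 to 349 ± 9.01 CPM, Hspa4 from 533 ± 9.05 to 279 ± 3.25 CPM and Cct3, a subunit of the cytosolic chaperonin, from 590.3 ± 5.31 to 332 ± 6.09 CPM. Of the heat shock list 13 were lower than with sgRNA 15, or 7 after the GC and length correction.

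Chaperones and degradation factors of the endoplasmic reticulum were split (10 of 26 rose and 14 fell). Herpud1, Ern1, which encodes the stress sensor IRE1, and Sel1l, of the ER degradation complex, rose from 42.9 to 89.4, from 19.5 to 49.5 and from 146 to 228 CPM. The folding factors Pdia3 and Canx fell from 1014 to 706 and from 783 to 541 CPM, and Hsp90b1 (-0.66) is uncertain. Genes of the NRF2 response and of glutathione and thioredoxin had 7 of 29 higher and 16 lower. Txn1, Txnrd1, Prdx1 and Gsr, which reduce disulfides and peroxides, fell with log2 changes of -0.76, -0.65, -0.56 and -0.66. Slc7a11, the cystine importer, rose from 7.91, 6.12 and 6.06 to 24.2, 22.8 and 24.2 CPM and was 34.3, 30.2 and 30.02 CPM with sgRNA 15, which was highest without overlap. Osgin1 and Gpx4 rose with log2 changes of 0.81 and 0.43.

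Glycolytic genes were mostly lower: 18 of 25 fell and 2 rose (median log2 -0.36, -0.31 with sgRNA 15). Ldha, which makes lactate, was 1785, 1808 and 1821 CPM with safe sgRNA, 724, 708 and 747 with sgRNA 11 and 704, 716 and 702 with sgRNA 15, so that the guides overlapped. Slc16a1, the lactate carrier MCT1, fell from 174, 179 and 169.5 to 60.4, 52.4 and 57.4 CPM without overlap. Tpi1 and Pgam1, enzymes of glycolysis, fell with log2 changes of -1.04 and -0.88. Hk3, a hexokinase of myeloid cells, rose from 90.9 ± 0.771 to 149.7 ± 5.76 CPM, as did Slc16a3, the lactate carrier MCT4, from 4.13 ± 0.535 to 8.84 ± 1.21 CPM. Hypoxia-inducible genes were mixed (7 of 19 rose and 9 fell). Hif1a and the glucose carrier gene Slc2a1 fell from 93.6 to 44.4 and from 144 to 76.7 CPM, whereas Ddit4, an inhibitor of mTORC1, Bnip3l, a mitophagy receptor, and Ero1l, an ER oxidase, rose with log2 changes of 1.67, 0.61 and 0.50.

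Nuclear genes of the respiratory chain and ATP synthase had 29 of 42 lower and 6 higher (median log2 -0.18), the last count being 2 after the GC and length correction. Cycs, which encodes cytochrome c, fell from 203, 198 and 197 to 96.9, 90.2 and 96.5 CPM without overlap, and Cyc1, Sdhd and Atp5c1 fell with log2 changes of -0.44, -0.49 and -0.39. Uqcrq and Ndufv1, of complexes III and I, rose with log2 changes of 0.92 and 0.45. Cox4i1 had log2 0.12 and was not called after that correction (0.02). Mitochondrial ribosomal proteins fell in 30 of 38 genes and rose in 3 (median log2 -0.32). Mrpl17, Mrps2 and Mrpl15 fell with log2 changes of -0.59, -0.64 and -0.47, and Mrpl12, Mrpl24 and Mrpl19 (-0.79, 0.42 and 0.23) are uncertain. The call of Mrpl2 (log2 0.08) was at the edge of the test, was lost without 8 of the 9 libraries in turn, and turned to -0.03 after the correction. Of 13 mRNAs encoded in mitochondrial DNA, 6 fell and 1 rose (median log2 -0.16). This median was -0.09 without sgRNA 11 replicate 3 and 0.06 after the GC and length correction, which left 2 lower and 5 higher. mt-Nd1 fell from 3113, 2985 and 2744 to 1602, 1553 and 1527 CPM and mt-Nd4 rose from 1039, 1019 and 990.4 to 1209, 1174 and 1156 CPM (log2 0.22, and 0.49 after the correction), and safe and sgRNA 11 libraries overlapped in neither. mt-Nd2 had log2 -0.36, which was -0.09 and not called after the correction.

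Cell cycle genes were mostly lower by small amounts. Of 39 genes of DNA replication and S phase 28 fell and 3 rose (median log2 -0.26), and of 32 genes of G2 and mitosis 26 fell and 4 rose (median -0.26). Pcna, the replication clamp, was 602, 603 and 581 CPM with safe sgRNA, 402, 399.6 and 414 with sgRNA 11 and 513, 489.8 and 511 with sgRNA 15, which lay in between without overlap. Rrm1 and Rrm2, the subunits of ribonucleotide reductase, and Mcm3, of the replicative helicase, fell with log2 changes of -0.55, -0.57 and -0.54. Cdt1, which licenses origins, Gins4 and Pole rose with log2 changes of 0.24, 0.32 and 0.15 (0.08 for Cdt1 after the GC and length correction). Cdc20 and Ccnb1, regulators of mitosis, fell from 203 ± 8.85 to 117 ± 2.14 and from 170.3 ± 2.35 to 108 ± 1.32 CPM, and the kinase genes Bub1 and Aurka fell with log2 changes of -0.67 and -0.54. Nusap1 and Cdc25b rose with log2 changes of 0.41 and 0.35 (0.23 for Cdc25b after the correction). Foxm1 had log2 0.09, which was not called without safe replicate 2 (0.06) and turned to -0.03 after the correction. Of the G2 and mitosis list 14 were lower than with sgRNA 15, or 7 after the correction.

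Among targets of p53, 11 of 19 rose and 4 fell. Bbc3, a BH3-only inducer of apoptosis, was 27.2, 28.4 and 29.6 CPM with safe sgRNA, 105.1, 113 and 106 with sgRNA 11 and 90.6, 87.3 and 93.5 with sgRNA 15, with sgRNA 11 highest. Cdkn1a, the cell cycle inhibitor p21, was 126, 123 and 126 CPM with safe sgRNA, 212, 218 and 221 with sgRNA 11 and 159, 158 and 165 with sgRNA 15, with no overlap between groups. Besides Plk2, Pmaip1, a BH3-only gene, and Aen, a nuclease, fell with log2 changes of -1.01 and -0.78. Genes of the FoxO and insulin response had 13 of 22 higher and 5 lower (median log2 0.53, 0.21 with sgRNA 15). Ccng2, an atypical cyclin, was 14.3, 15.8 and 14.9 CPM with safe sgRNA, 55.2, 52.7 and 50.9 with sgRNA 11 and 37.7, 37.8 and 38.7 with sgRNA 15, which lay in between without overlap. Fbxo32, a ubiquitin ligase subunit, rose from 2.03 ± 0.365 to 9.79 ± 0.560 CPM, and Txnip (1.25) is uncertain. Sod2, the mitochondrial superoxide dismutase, and Cited2 fell with log2 changes of -0.77 and -0.24.

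Immediate-early and serum response genes had 7 of 26 higher and 14 lower. Besides Atf3, Srf, the serum response factor, fell from 198, 198 and 203 to 91.1, 98.8 and 98.2 CPM without overlap. Klf4 and Klf2, Krüppel-like transcription factors, rose from 15.7 to 56.5 and from 32.9 to 48.5 CPM, with 52.9 and 34.7 CPM under sgRNA 15, and Btg1, an antiproliferative gene, rose with log2 0.69. Feedback regulators and targets of ERK had 6 of 19 higher and 12 lower, and 9 were higher and 3 lower than with sgRNA 15, the last being 5 after the GC and length correction. Dusp6, the cytosolic ERK phosphatase, was 121, 112 and 112 CPM with safe sgRNA, 278, 271 and 285 with sgRNA 11 and 188, 191 and 188 with sgRNA 15. Dusp4, a nuclear MAP kinase phosphatase, was 355, 353 and 366 CPM with safe sgRNA, 218, 225 and 227 with sgRNA 11 and 299, 306 and 303 with sgRNA 15. These phosphatases thus moved in opposite directions, each further from safe with sgRNA 11 than with sgRNA 15 and without overlap (log2 0.56 and -0.44 between the guides).

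Of 17 genes of iron handling 5 rose and 9 fell against safe sgRNA, and 3 were higher and 11 lower than with sgRNA 15. Tfrc, the transferrin receptor, was 394, 378 and 371 CPM with safe sgRNA, 187, 177 and 174 with sgRNA 11 and 240.5, 241 and 246 with sgRNA 15, with sgRNA 11 lowest and no overlap. Slc11a2, the importer DMT1, fell from 94.7 ± 1.61 to 66.6 ± 1.54 CPM, and Flvcr1 (-0.68) is uncertain. Hfe, a regulator of iron sensing, rose from 17.9 ± 0.708 to 32.1 ± 0.490 CPM, and Slc40a1, the exporter ferroportin, from 68.8 ± 2.89 to 89.1 ± 2.25 CPM. Fth1, the ferritin heavy chain, rose with log2 0.15 (0.08 after the GC and length correction) and was lower than with sgRNA 15 (log2 -0.33).

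**Figure D5:**
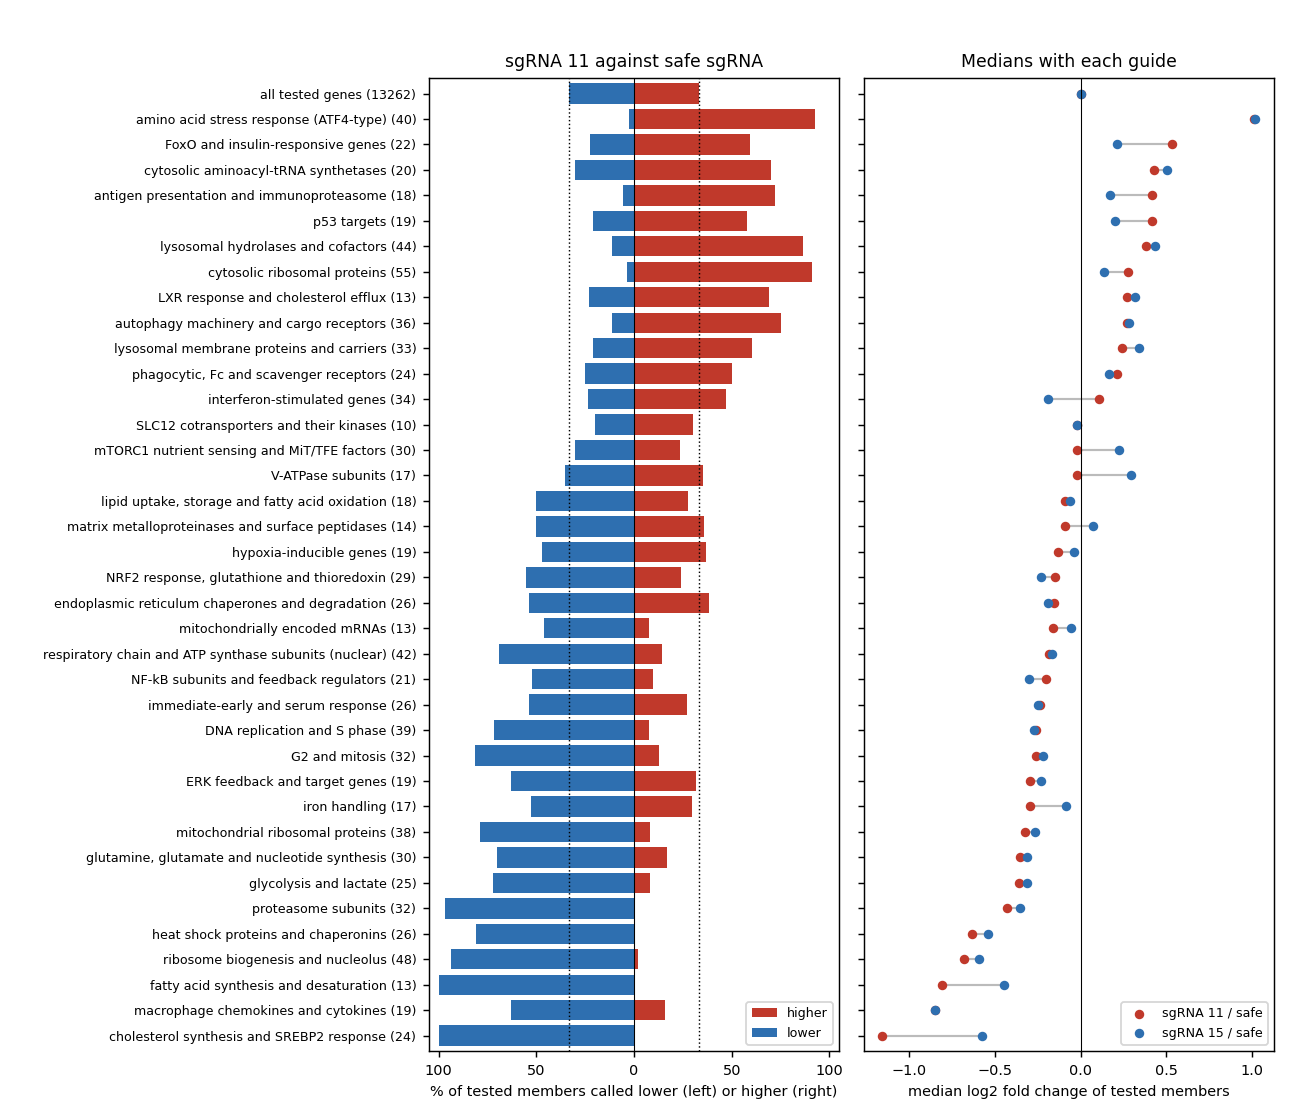
Left, percent of the tested members of each list (number in brackets) called lower (blue) or higher (red) with sgRNA 11 against safe sgRNA, with dotted lines at the 33.1% of all tested genes. Right, median log2 fold change with sgRNA 11 (red) and sgRNA 15 (blue) against the same safe libraries, which reaches from 1.01 for the amino acid stress list to -1.15 for cholesterol synthesis with sgRNA 11.

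Per kilobase of merged exon length, Lyz2, the lysozyme of macrophages (chromosome 10, 117277331 to 117282321, minus strand), gained most with sgRNA 11, from 1314 to 3423 CPM per kilobase. In CPM it was 1863, 1662 and 1661 in safe libraries, 4486, 4433 and 4595 with sgRNA 11 and 3609, 3535 and 3568 with sgRNA 15. Safe replicate 1, which differed most from its group by the chi-square on counts, was the highest of the safe ones. The elongation factor genes Eef1a1 and Eef2 rose from 3454 to 5355 and from 941 to 1644 CPM per kilobase, and Grn, the lysosomal protein progranulin, from 322 to 665. The ribosomal stalk gene Rplp1 rose from 2834 to 3532 CPM per kilobase (log2 0.32, 0.19 with the GC and length correction), and Ctsd (log2 0.60) is uncertain. The greatest losses were those of mt-Nd1 (3079.7 to 1630.5 CPM per kilobase), Actb, the cytoskeletal actin (2261 to 1602), Ptma (1460.3 to 1037), the chaperone gene Hsp90ab1 (1234 to 829) and the translation factor gene Eif5a (739 to 356). mt-Co1 followed (4288 to 3927, log2 -0.13), and its sign turned after the GC and length correction (0.06).

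Differences were related to the composition of transcripts to a limited degree. Across 13237 genes, Spearman's rho of GC content with the log2 difference was 0.18 for sgRNA 11 against safe sgRNA and 0.30 for sgRNA 11 against sgRNA 15. Between the 25% of genes lowest in GC and the 25% highest, the median log2 difference went from -0.12 to 0.12 and from -0.10 to 0.08 in these contrasts. The rho of log2 exon length over 13252 genes was -0.01 and -0.15. These genes come from the same libraries and are not independent replicates. Values after a correction for both properties are given above for some of the results they moved. Ribosomal protein genes higher than with sgRNA 15 went from 46 to 38, and NF-kB genes lower than with safe sgRNA from 11 to 16. Against safe sgRNA the median log2 change went from 0.38 to 0.28 for lysosomal hydrolases and from 0.42 to 0.28 for antigen presentation. It grew for p53 targets, from 0.41 to 0.54. By class of gene, 35.9% of 11205 tested protein-coding genes were higher and 36.3% lower, against 34.5% and 10.1% of 238 lincRNA genes and 8.76% and 18.5% of 1085 processed pseudogenes. Medians by chromosome ranged from -0.07 on chromosome 16 to 0.10 on chromosome 7, leaving out the mitochondrial genome.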

How the data were processed

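Polyadenylated, rRNA-depleted RNA of 9 libraries (3 each with safe sgRNA, sgRNA 11 and sgRNA 15, grouped by their titles) was sequenced. Per the submitters' processing notes, STAR, HTSeq and the build mm10 were used to align reads and count them per Ensembl gene. Tool versions, the annotation release and the strand and overlap settings of the counting were not given in the sources used here. The deposited values are raw read counts, 1 table per library. Reads in the tallies that name no gene were left out: no feature (4.10 to 4.60%), ambiguous (6.32 to 6.56%) and aligned to more than 1 place (6.20 to 6.69%). From the counts, genes with 10 or more counts in at least 3 of the 6 libraries were tested with the edgeR 4.0.16 quasi-likelihood test (robust, TMM, R 4.3.3) in 1 fit of all 9 libraries, which share 1 estimate of spread with 6 residual degrees of freedom. The contrasts were sgRNA 11 against safe sgRNA, sgRNA 11 against sgRNA 15 and sgRNA 15 against safe sgRNA, 2-sided, with Benjamini-Hochberg adjustment over all tested genes and a threshold of 0.05. CPM values use TMM-scaled library sizes. Depth was 16405296 to 25613961 counts in genes over the 9 libraries. With multiple alignments set aside, values of near-identical paralogs are less certain.

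Gene symbols came from GENCODE M21 for 55141 of 55487 IDs, and all 1052 entries in 37 lists matched. Members and lists were chosen with earlier results of these data known, and the lists are described by counts and medians without a test. Named genes are Slc12a9, the 12 largest rises and 12 largest falls against safe sgRNA with a mean of at least 5 CPM, the 12 furthest above and below both other groups, the 5 in each direction called oppositely with the guides, the 6 largest gains and losses per kilobase, and the called members of each list with the smallest p (up to 4) and those called against most of their list. Predicted genes, pseudogenes and antisense genes were passed over. Promoter windows came from RefSeq on GRCm38.p6. Alternatives were DESeq2 1.42.0, limma-voom (limma 3.58.1), other scalings and filters, a correction for GC content and length, a replicate block and leaving out each library. The fit was tested on simulated data. A few genes are not reported here by name.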

Additional observations from a re-analysis of the deposited data

Results flagged for a closer look

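These 10 genes are given here because the effects of the guides against safe sgRNA went in opposite directions and differed in the edgeR quasi-likelihood test of sgRNA 11 against sgRNA 15. They are the 5 genes in each direction with the largest smaller change among genes with a mean of at least 5 CPM, so their sizes were chosen and are a description. The largest gap among the 5 genes higher with sgRNA 11 was that of Dmpk, a kinase gene known from myotonic dystrophy. Dmpk was 157, 154 and 166 CPM with safe sgRNA, 270.3, 270.1 and 277 with sgRNA 11 and 93.2, 96.2 and 90.3 with sgRNA 15 (log2 1.55 between the guides, edgeR adjusted p = 1.04e-52). Irf7, a transcription factor of the interferon response, was 38.9, 39.9 and 37.3 CPM with safe sgRNA, 49.3, 49.1 and 47.9 with sgRNA 11 and 26.98, 25.7 and 28.6 with sgRNA 15 (log2 0.85). Asb2, a ubiquitin ligase subunit, had log2 changes of 0.44 with sgRNA 11 and -0.62 with sgRNA 15 (1.06 between them). For Fgd2, an exchange factor of the GTPase Cdc42, these values were 0.43, -0.48 and 0.91, and for the integrin gene Itga8 0.43, -0.57 and 0.99. After the GC and length correction the change against safe sgRNA was 0.27 for Asb2, 0.26 for Fgd2 and 0.18 for Irf7.

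In the other direction, Mmp12 and Zfp469 had differences of -1.94 and -2.28 from sgRNA 15, with their levels given above. Mcoln2, an ion channel of endosomes and lysosomes, was 29.4, 32.8 and 28.3 CPM with safe sgRNA, 22.2, 21.3 and 21.5 with sgRNA 11 and 44.02, 45.5 and 44.8 with sgRNA 15 (log2 -1.04 between the guides, edgeR adjusted p = 5.67e-25). Nceh1, which hydrolyses cholesterol esters, was 266, 266 and 267 CPM with safe sgRNA, 181, 179.6 and 178 with sgRNA 11 and 391.6, 390.3 and 402 with sgRNA 15 (log2 -1.13). Disp3, of the family with a sterol-sensing domain, had log2 changes of -0.61 with sgRNA 11 and 0.61 with sgRNA 15 (-1.23 between them). Which of these differences belong to the guide and which to the cells that carried it cannot be told apart with 1 set of libraries per guide. Groups of 3 libraries are too small for a test of single outlying libraries.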

How the results depend on the processing

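The number of genes at least 1 on the log2 scale higher and lower than safe sgRNA, 689 and 348, was 303 and 148 when only genes with a mean of at least 5 CPM were tested, and 264 and 131 with a test against a minimum log2 change of 1. Fewer genes are tested or can pass under these settings by construction. The correction for GC content and length, which covered 99.8% of tested genes, turned the sign of mt-Co1 (0.0591), Mrpl2 (-0.0333) and Foxm1 (-0.0321) and of the median of mitochondrial mRNAs against safe sgRNA (0.0591) and against sgRNA 15 (0.0023), and the cause was not tested. It gave 4050 genes higher and 4766 lower against safe, and 2030 and 1912 against sgRNA 15. Genes apart from both other groups were then 1204 higher and 1246 lower, in place of 1330 and 1574. Those counts were 1380 and 1240 with no filter on low counts, and 1159 and 1312 with DESeq2. DESeq2 gave 4067 higher and 4109 lower against safe sgRNA, limma-voom 4386 and 4420, and scaling by library size 4784 and 4029. Leaving out each library in turn gave 4120 to 4347 higher and 4087 to 4459 lower, 686 to 729 and 327 to 391 of at least 1 on the log2 scale, and 1824 to 2144 higher and 2038 to 2436 lower against sgRNA 15. Genes apart from both other groups were 1215 to 1380 higher and 1279 to 1531 lower. Slc12a9 was 0.37 to 0.51 in these fits. For single named genes, 5422 values stayed on their side of the test, 25 kept their direction and lost the call, and 3 turned, counted over all alternatives. Deviations from group means were at most weakly correlated between replicates of the same number in different groups (-0.003 to 0.07). Between replicates of different numbers the correlations were -0.10 to 0.04. Whether the numbers mark shared batches is not given in the labels and was not tested. With the replicate number as a block, 4439 genes were higher and 4452 lower against safe, 2121 and 2576 against sgRNA 15, 1396 and 1646 apart from both, and Slc12a9 was 0.43. Small changes could be missed at this depth, spread and number of replicates. In simulated data for this comparison (13262 genes, 200 changed), 60.6% of 1.2-fold, 87.5% of 1.5-fold and 100% of 2-fold changes were called. There were 10 calls among 13062 unchanged genes. Far fewer genes changed there than the 8780 called in the data, which makes the adjusted threshold stricter. These shares therefore do not measure what was missed in the data.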
